A study of Homo sapiens with 14 samples.

Results

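The 10 subunits of the ER membrane protein complex (EMC) were followed as messages under translation: EMC1, EMC2, EMC3, EMC4, MMGT1 (also called EMC5), EMC6, EMC7, EMC8, EMC9 and EMC10. They were taken by gene symbol from count files of 19440 symbols, all 10 were found, and all 10 passed the filter on low counts that left 9458 genes for testing. The study used selective ribosome profiling in Flp-In T-REx 293 cells, a human embryonic kidney line with 1 genomic site for transgenes, in which a subunit carrying 3 copies of the Flag tag was switched on by 72 h of doxycycline (0.5 to 1.0 ng/mL). The EMC6 line was an EMC6 knockout that expressed 3Flag-EMC6, whereas the EMC7 and EMC10 lines expressed 3Flag-EMC7 and 3Flag-EMC10 and their labels name no knockout, so tagged and endogenous subunits could be present together there. From each line, the material held by Flag beads (IP) and the solubilized, nuclease-treated microsomes it was taken from (input) were reduced to ribosome footprints and counted per gene, with 2 IPs and 2 inputs for EMC6, 2 IPs and 2 inputs for EMC7, and 3 IPs and 3 inputs for EMC10. All groups share the doxycycline treatment, and no IP used here came from cells without a tagged subunit, so messages held through the complex and messages held by the beads in another way cannot be told apart.

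The EMC is an insertase: it places hydrophobic segments of new proteins into the ER membrane, among them first segments of many receptors and transporters and the tails of some tail-anchored proteins. EMC3, a relative of the bacterial Oxa1 and YidC insertases, and EMC6 form the groove through which segments pass, EMC4 lies beside this groove, and MMGT1 joins the membrane part to the cytosolic part. EMC1 is the largest subunit, with a long luminal part and a single membrane segment, and EMC7 and EMC10 are smaller single-pass proteins with a domain in the lumen. EMC2 is a cytosolic scaffold, and EMC8 and EMC9 are paralogues that take the same place on it. A footprint marks a ribosome on a message, so these data follow the making of the subunits and not the amount of assembled complex.

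The libraries held 515302 to 3395114 counts on genes, and the EMC6 line was the shallowest, with 515302 and 960279 counts in its IPs and 1692490 and 1835892 in its inputs. Rows of the files that name no gene held 9.28% to 9.74% of the counts of the EMC6 IPs and 11.5% to 12.5% of the EMC6 inputs, against 2.76% to 3.15% and 4.68% to 5.15% in the IPs and inputs of the other lines. Of 5 markers fixed for the cell line, NEFL had 214 to 414 counts, WT1 12 to 21 and PAX2 1 to 9 in each input, while LHX1 had 0 and NEFM 1 over all 14 libraries. Of 6 markers of other cell types, ALB, PTPRC, CDH5, PECAM1 and INS had 0 counts and HBB had 5 in all. Levels are given as CPM, counts made relative to library depth after TMM scaling, a method that takes most genes as unchanged. Changes are log2 values ± SE of IP over input. P-values come from the quasi-likelihood test of edgeR, were adjusted over the 9458 genes, and give a call under 0.05.

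The own bait stood apart in every line. With the EMC6 bait, the EMC6 row (chromosome 17, 3668812 to 3669665, GRCh38) held 4324 and 4537 CPM in EMC6 IPs, against 18.4 and 29.1 CPM in EMC6 inputs. The EMC7 row (chromosome 15, 34084017 to 34101862) held 232720 and 230780 CPM in EMC7 IPs, against 4215 and 4644 CPM in EMC7 inputs. The EMC10 row (chromosome 19, 50476507 to 50490871) held 420540, 383060 and 423280 CPM in EMC10 IPs, against 2269, 2381 and 3062 CPM in EMC10 inputs. In each line every IP lay far above every input, and the own bait exceeded at least 99.979% of the tested genes in every pair of IP and input. These rows add tagged and endogenous messages together, so they check that the labelled bait was recovered and not whether the endogenous EMC6 gene was lost.

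The IP over input change of each bait row was also set against that of the same row under another bait. The change of the EMC6 row was larger with the EMC6 than with the EMC7 bait by 6.37 ± 0.33 (adjusted p = 1.55e-16) and larger than with the EMC10 bait by 6.44 ± 0.29 (adjusted p = 1.87e-18). The EMC10 row changed less with the EMC6 than with the EMC10 bait (-6.83 ± 0.26, adjusted p = 4.93e-20) and less with the EMC7 than with the EMC10 bait (-6.70 ± 0.24, adjusted p = 7.50e-21). For the EMC7 row the values were -2.45 ± 0.34 for EMC6 minus EMC7 (adjusted p = 0.00136) and 2.81 ± 0.31 for EMC7 minus EMC10 (adjusted p = 7.33e-05). In their own lines the EMC6, EMC7 and EMC10 rows changed by 7.54, 5.71 and 7.31, so the smaller EMC7 gaps also hold a smaller change in its own line. EMC7 was the bait row with the highest change outside its own line, and the difference between the 3 gaps was not tested.

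**Figure D1:**
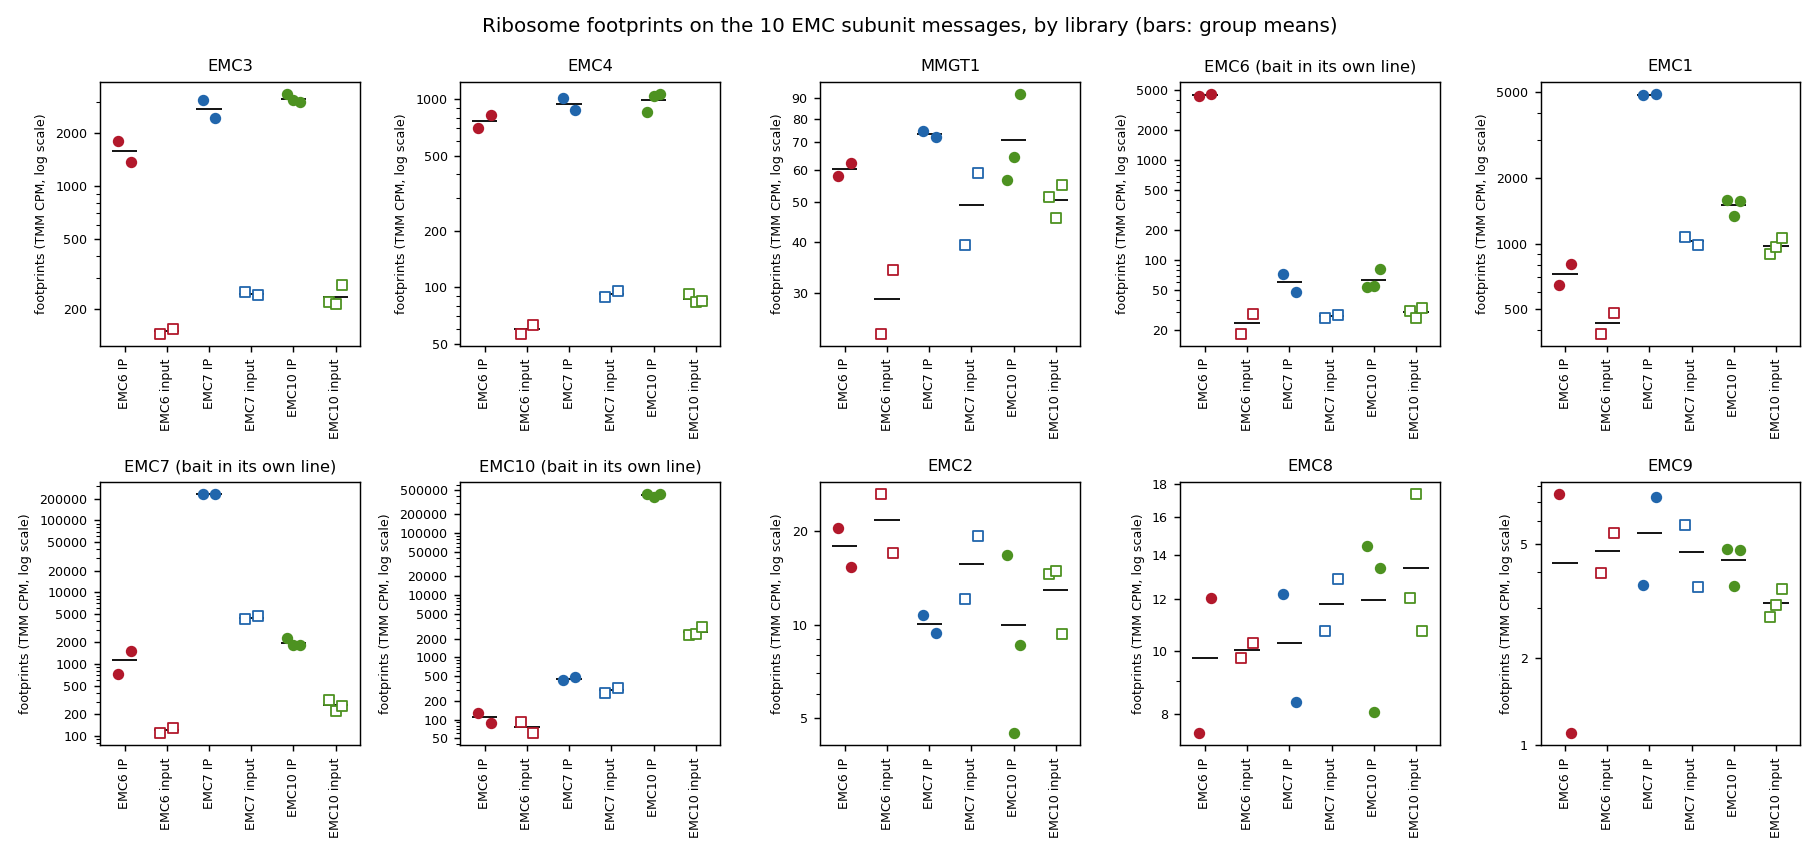
Footprints on each of the 10 subunit messages in CPM (log axis, TMM-scaled), with filled circles for IP libraries, open squares for input libraries and a bar at each group's mean. EMC3 and EMC4 IPs lie well above their inputs in all 3 lines, EMC1 does so most in the EMC7 line, and EMC2, EMC8 and EMC9 IPs lie near their inputs.

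With the own bait set aside, 5 of the 9 other subunits rose with the EMC6 bait and none fell, 6 of 9 rose with the EMC7 bait and none fell, and 6 of 9 rose with the EMC10 bait and none fell. The DESeq2 test called 6, 5 and 6 of the 9. Among all tested genes 17.6% were called higher and 9.27% lower with the EMC6 bait (26.9% in either direction), 20.4% and 9.68% with the EMC7 bait (30.1%), and 19.9% and 13.9% with the EMC10 bait (33.9%). The median log2 change of the 9 subunits was 0.76, 0.62 and 0.62 in the 3 lines, beside -0.12, -0.14 and -0.17 for all tested genes. The split of calls over all genes rests on the scaling: with library size alone 990 genes were higher and 4320 lower with EMC6, 1001 and 6038 with EMC7 and 760 and 7171 with EMC10, and with DESeq2 size factors 1803 and 479 with EMC6. Of the subunits, 3 rose and 1 fell with EMC6 by library size alone, and 3 rose and 2 fell with EMC7. With EMC10, EMC3, EMC4 and EMC7 rose by that measure and MMGT1, EMC1, EMC2 and EMC8 fell. Every subunit that rose is a membrane or luminal one, and none of the 3 cytosolic subunits was called under TMM with any of the baits. The cytosolic changes had SEs of 0.30 to 0.74, so a rise as small as that of MMGT1 could go uncalled. With the EMC10 bait EMC9 stood at 0.48 ± 0.52, not called, and MMGT1 at 0.50 ± 0.19, called.

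EMC3, the insertase subunit (chromosome 3, 9962682 to 10011118), had 1812 and 1362 CPM in EMC6 IPs, against 145 and 154 CPM in EMC6 inputs. It had 3062 and 2434 CPM in EMC7 IPs, against 249 and 242 CPM in EMC7 inputs. It had 3317, 3072 and 2997 CPM in EMC10 IPs, against 219.5, 214 and 273.5 CPM in EMC10 inputs. No IP overlapped an input, and EMC3 rose about as much with each bait, by 3.40 ± 0.18, 3.49 ± 0.18 and 3.73 ± 0.15 (adjusted p = 2.10e-17, 1.94e-17 and 3.46e-21). These changes exceeded those of 98.4%, 99.5% and 99.6% of the tested genes.

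EMC4, beside the groove (chromosome 15, 34225016 to 34230156), changed by about as much as EMC3. It had 701 and 826 CPM in EMC6 IPs, against 56.8 and 63.3 CPM in EMC6 inputs. It had 1015 and 875 CPM in EMC7 IPs, against 88.7 and 95.9 CPM in EMC7 inputs, and 855, 1041 and 1063 CPM in EMC10 IPs, against 92.5, 84.0 and 84.6 CPM in EMC10 inputs. The rise was 3.67 ± 0.19, 3.36 ± 0.18 and 3.50 ± 0.15 with EMC6, EMC7 and EMC10 (adjusted p = 6.16e-18, 3.69e-17 and 1.45e-20), again with no overlap of IPs and inputs.

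EMC6, the partner of EMC3 in the groove, could be read as a captured message only in the lines where it was no bait. It had 72.6 and 48.0 CPM in EMC7 IPs, against 26.5 and 28.3 CPM in EMC7 inputs. It had 54.2, 54.6 and 82.2 CPM in EMC10 IPs, against 30.8, 26.4 and 32.9 CPM in EMC10 inputs. IPs and inputs did not overlap, and EMC6 rose by 1.17 ± 0.24 with EMC7 (adjusted p = 0.000159) and by 1.09 ± 0.20 with EMC10 (adjusted p = 2.23e-05), above 84.8% and 87.0% of the tested genes. Without IP replicate 1 of the EMC7 line the rise with EMC7 was 0.80 and did not pass (adjusted p = 0.0801).

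MMGT1, the subunit that bridges membrane and cytosol (chromosome X, 135960588 to 135973988), had the smallest change among the 4 multi-pass subunits in each line. It had 58.0 and 62.4 CPM in EMC6 IPs, against 23.9 and 34.2 CPM in EMC6 inputs. It had 74.8 and 72.1 CPM in EMC7 IPs, against 39.3 and 58.9 CPM in EMC7 inputs, and 56.6, 64.5 and 91.7 CPM in EMC10 IPs, against 51.5, 45.7 and 54.9 CPM in EMC10 inputs. Every IP lay above the inputs of its own line, but the closest values differed by little, as between 56.6 CPM in an EMC10 IP and 54.9 CPM in an EMC10 input. MMGT1 rose by 1.06 ± 0.27, 0.60 ± 0.22 and 0.50 ± 0.19 with EMC6, EMC7 and EMC10 (adjusted p = 0.00263, 0.0400 and 0.0355), above 85.3%, 76.0% and 77.5% of the tested genes. Each call was lost when single libraries were left out. With the EMC6 bait it was lost without its IP 2 (0.98, adjusted p = 0.0768). With the EMC7 bait the change was 0.31, 0.55 and 0.62 without its input 1, IP 1 or IP 2 (adjusted p = 0.444, 0.215 and 0.108), and 0.595 and 0.594 without EMC10 input 1 or 3 (adjusted p = 0.0514 and 0.0543). With the EMC10 bait it was 0.51, 0.42 and 0.27 without its input 1, input 2 or IP 3 (adjusted p = 0.0735, 0.126 and 0.382). DESeq2 did not call the rise with EMC7 (0.66, adjusted p = 0.0537).

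**Figure D2:**
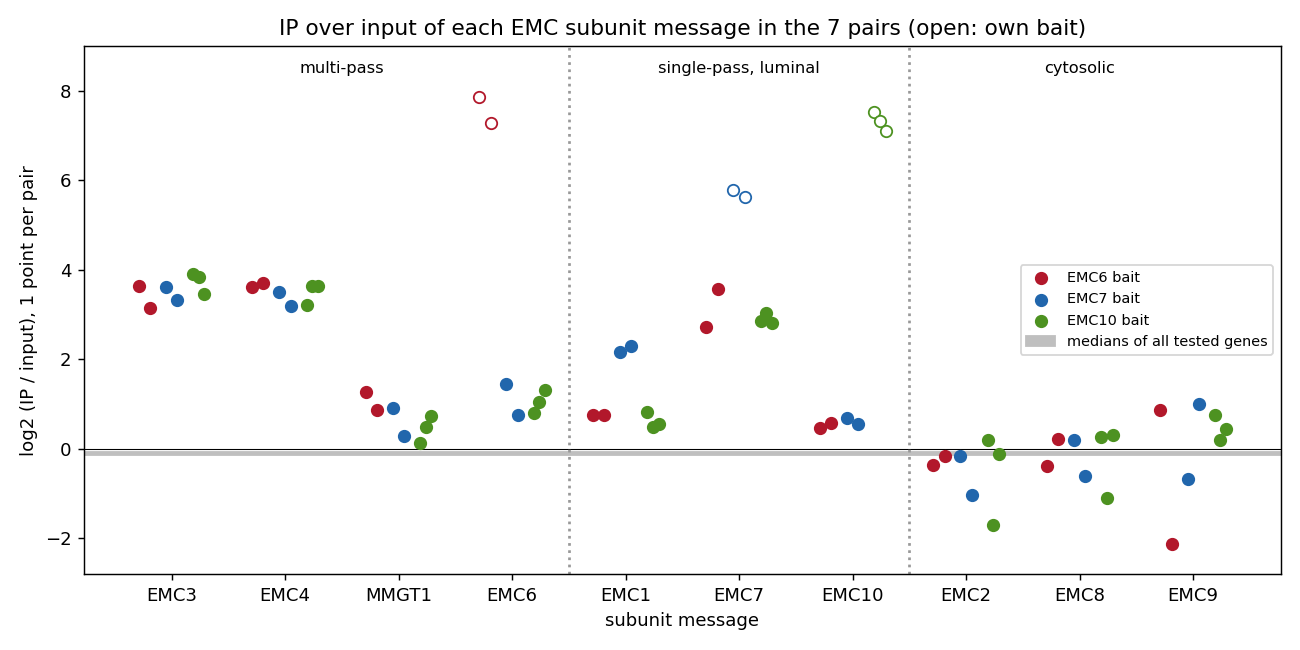
The log2 ratio of IP over input for each subunit message (x axis) in each of the 7 pairs of IP and input, coloured by bait, with open circles for the own bait and a grey band over the medians of all tested genes. EMC3, EMC4 and EMC7 lie between 2.73 and 3.92 outside their own bait line, EMC1 lies at 2.17 and 2.29 in the EMC7 line and below 0.83 elsewhere, and the cytosolic subunits scatter about the band.

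Among the single-pass subunits, EMC7 under another bait had changes near those of EMC3 and EMC4. It had 722 and 1543 CPM in EMC6 IPs, against 109 and 129 CPM in EMC6 inputs, with the IPs of that line differing by more than 2-fold. It had 2285, 1857 and 1830 CPM in EMC10 IPs, against 314, 225 and 262 CPM in EMC10 inputs. The rise was 3.26 ± 0.26 with EMC6 and 2.90 ± 0.20 with EMC10 (adjusted p = 3.53e-09 and 3.57e-10), above 98.1% and 98.2% of the tested genes. EMC10, the other small luminal subunit, had a smaller change in each line where it was no bait.

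EMC10 had 129 and 89.8 CPM in EMC6 IPs, against 92.9 and 60.2 CPM in EMC6 inputs, so these groups overlapped. It had 426 and 482 CPM in EMC7 IPs, against 264 and 327 CPM in EMC7 inputs, with no overlap. The change was 0.48 ± 0.21 with EMC6 (adjusted p = 0.0951) and 0.62 ± 0.18 with EMC7 (adjusted p = 0.00609), above 74.1% and 76.4% of the tested genes. With IP and input of a replicate number paired, the change with EMC6 was 0.52 and passed the test (adjusted p = 0.00103). It was also called with DESeq2 size factors (0.62, adjusted p = 0.0429) and with the DESeq2 test (0.62, adjusted p = 0.0486). Without input 1 of the EMC6 line it was 0.82 (adjusted p = 0.00940), while the call with EMC7 was lost without input 1 or IP 2 of that line (adjusted p = 0.146 and 0.0856).

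EMC1 (chromosome 1, 19215660 to 19251524) was the subunit whose change differed between baits. It had 649 and 809 CPM in EMC6 IPs, against 386 and 480.1 CPM in EMC6 inputs. It had 4834 and 4856 CPM in EMC7 IPs, against 1074 and 989.6 CPM in EMC7 inputs, and 1587, 1346 and 1562 CPM in EMC10 IPs, against 895, 966 and 1059 CPM in EMC10 inputs. IPs lay above inputs in every line, with the widest gap in the EMC7 line. The rise was 0.76 ± 0.16 with EMC6, 2.23 ± 0.17 with EMC7 and 0.62 ± 0.13 with EMC10 (adjusted p = 0.000503, 1.06e-13 and 0.000218), above 80.3%, 95.2% and 79.8% of the tested genes. Fitted on its own libraries, the EMC6 line gave 0.76 with an adjusted p of 0.0866.

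The 3 cytosolic subunits had few footprints on microsomes, so their changes were measured with little precision. EMC2, the scaffold (chromosome 8, 108443624 to 108489196), had 11 and 14 counts in EMC6 IPs, against 73 and 50 in EMC6 inputs. It had 15 and 9 counts in EMC7 IPs, against 52 and 60 in EMC7 inputs. The EMC10 IPs held 14, 5 and 9 EMC2 counts, against 63, 68 and 35 in their inputs. After scaling, its changes were -0.32 ± 0.40, -0.59 ± 0.40 and -0.47 ± 0.36 with EMC6, EMC7 and EMC10 (adjusted p = 0.615, 0.296 and 0.331), and 38.2%, 21.6% and 28.1% of tested genes had a lower value. In the EMC7 line EMC2 IPs, at 10.8 and 9.40 CPM, lay below the inputs, at 12.1 and 19.3 CPM, while in the other lines the groups overlapped.

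EMC8 (chromosome 16, 85778624 to 85799544) had 4 to 17 counts per IP and 27 to 79 per input, and changed by 0.04 ± 0.45, -0.14 ± 0.37 and -0.20 ± 0.30 with EMC6, EMC7 and EMC10 (adjusted p = 0.964, 0.822 and 0.654). EMC9, its paralogue (chromosome 14, 24138965 to 24141591), had 1 to 7 counts per IP and 11 to 25 per input, and changed by -0.44 ± 0.74, 0.10 ± 0.55 and 0.48 ± 0.52 (adjusted p = 0.718, 0.923 and 0.520). With these baits in turn, 57.8%, 49.7% and 47.8% of tested genes had a lower value than EMC8, and 32.0%, 61.9% and 77.1% than EMC9. IP and input CPM of EMC8 and EMC9 overlapped in each line except for EMC9 in the EMC10 line, where 3.58 to 4.82 CPM in IPs stood against 2.78 to 3.48 CPM in inputs.

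Differences between baits were tested directly, as the difference between the IP over input changes of each pair of lines. Of the 8 subunits that were bait in neither line, EMC1 alone was called for EMC6 minus EMC7 and again for EMC7 minus EMC10. For EMC6 minus EMC10 edgeR called 0 of 8, with 0 of 8 at an unadjusted p under 0.05, and DESeq2 called 0 of the 4 it gave an adjusted p. Few genes of any kind were called in this fit, which does not pair IP and input: 0.518% for EMC6 minus EMC7 (0.19% higher, 0.328% lower), 0.074% for EMC6 minus EMC10 (0.0634% higher, 0.0106% lower) and 0.159% for EMC7 minus EMC10 (0.148% higher, 0.0106% lower). At an unadjusted p under 0.05 there were 847, 590 and 621 genes. With IP and input paired by replicate number, 267 genes were called higher and 330 lower, 178 and 33, and 348 and 66. The paired fit also makes its own estimate of the spread, and how much of the gain comes from pairing was not tested. The EMC1 change was lower with EMC6 than with EMC7 (-1.48 ± 0.23, adjusted p = 0.000447) and higher with EMC7 than with EMC10 by 1.61 ± 0.21 (adjusted p = 1.63e-05). It ranked 4 by p among the 9458 genes in the first of these comparisons and 2 in the second, where only the EMC10 bait row ranked ahead of it. Between EMC6 and EMC10 the EMC1 difference was 0.13 ± 0.21 (adjusted p = 0.956).

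The EMC1 difference held its direction and its call in every alternative run: it stayed between -1.48 and -1.16 for EMC6 minus EMC7, with adjusted p up to 0.0484, and between 1.51 and 1.71 for EMC7 minus EMC10, with adjusted p up to 0.000117. Without each library in turn it ranged from -1.65 to -1.17 and from 1.54 to 1.67. The comparisons share the EMC7 libraries, so the values are not independent of each other.

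Among the other subunits the differences between baits did not pass the test. EMC3 differed by -0.08 ± 0.24, -0.33 ± 0.22 and -0.245 ± 0.22 for EMC6 minus EMC7, EMC6 minus EMC10 and EMC7 minus EMC10, and EMC4 by 0.31 ± 0.25, 0.17 ± 0.22 and -0.14 ± 0.22. With IP and input paired by replicate number, EMC3 was called lower with EMC6 than with EMC10 (-0.35, adjusted p = 0.0484). MMGT1 differed by 0.46 ± 0.35, 0.56 ± 0.32 and 0.10 ± 0.29. EMC7 differed by 0.36 ± 0.31 between EMC6 and EMC10, EMC10 by -0.13 ± 0.28 between EMC6 and EMC7, and EMC6 by 0.07 ± 0.31 between EMC7 and EMC10. The SEs of the cytosolic subunits were 0.48 to 0.92, so these data bound their differences only loosely.

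**Figure D3:**
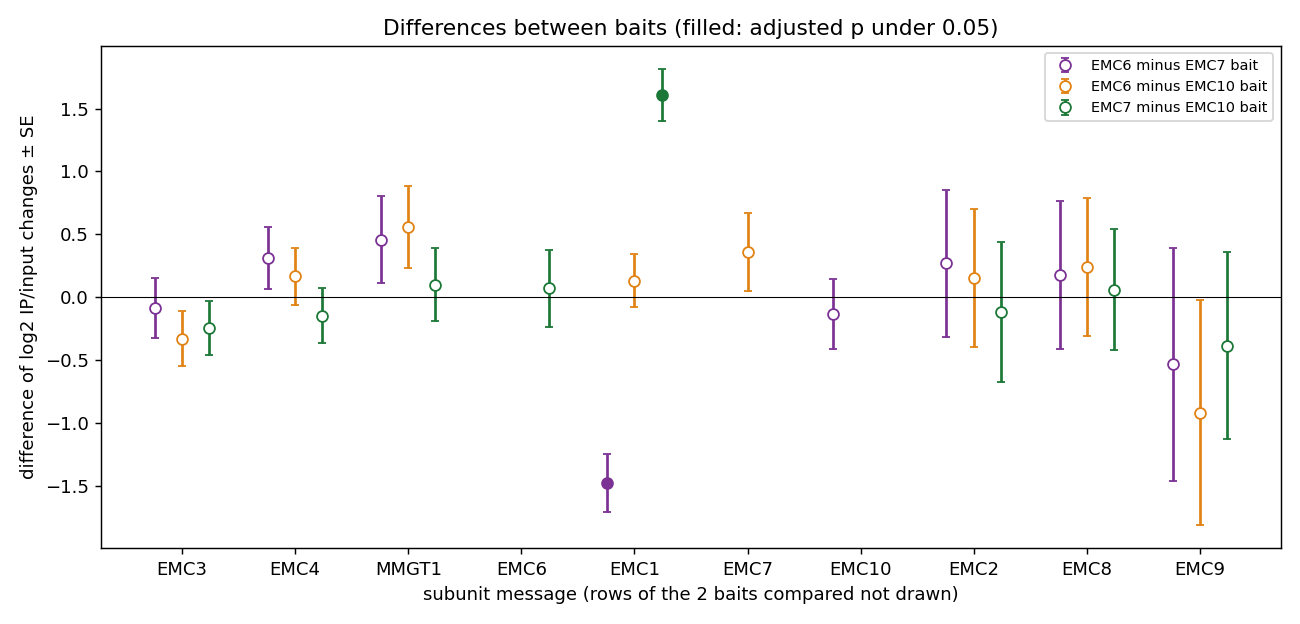
Differences between pairs of baits in the log2 IP over input change (y axis, ± SE) for each subunit message (x axis), with filled points where the adjusted p is under 0.05. The filled points are both EMC1, at -1.48 for EMC6 minus EMC7 and 1.61 for EMC7 minus EMC10.

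Ratios between subunits within a library need no scaling between libraries, so the footprints on the 7 subunits that were bait in no line were also taken as shares of their sum, which was 1741 to 12535 counts per IP and 1804 to 6357 per input. EMC1 made up 19.9% and 26.2% of these footprints in EMC6 IPs, against 59.2% and 62.8% in EMC6 inputs. It made up 53.6% and 58.8% in EMC7 IPs, against 69.6% and 72.6% in EMC7 inputs, and 24.3% to 27.2% in EMC10 IPs, against 69.5% to 71.8% in EMC10 inputs. In each line every IP lay below every input, and the EMC7 IPs lay above all IPs of the other lines.

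The shares are parts of the same sum, so a lower EMC1 share leaves more to the others. The shares below are therefore not results independent of that of EMC1. The share of EMC3 ran the other way. It was 49.9% ± 8.2 (SD, n = 2) in EMC6 IPs, against 21.2% ± 1.5 in EMC6 inputs, and 31.7% ± 3.2 (n = 2) in EMC7 IPs, against 16.9% ± 0.13 in EMC7 inputs. It was 54.8% ± 2.3 (n = 3) in EMC10 IPs, against 17.1% ± 1.2 in EMC10 inputs. EMC4 stood at 24.1% ± 3.7, 10.9% ± 0.47 and 17.3% ± 2.3 in EMC6, EMC7 and EMC10 IPs, against 8.49% ± 0.30, 6.37% ± 0.53 and 6.36% ± 0.77 in their inputs. The share of MMGT1, also of the membrane part, was lower in the IPs, with 1.90% ± 0.17, 0.851% ± 0.030 and 1.24% ± 0.32 in the IPs, against 4.07% ± 0.58, 3.40% ± 1.05 and 3.69% ± 0.30 in the inputs. The ratio of EMC4 to EMC3 counts, 0.258 to 0.607 in IPs against 0.309 to 0.421 in inputs, overlapped between the fractions.

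**Figure D4:**
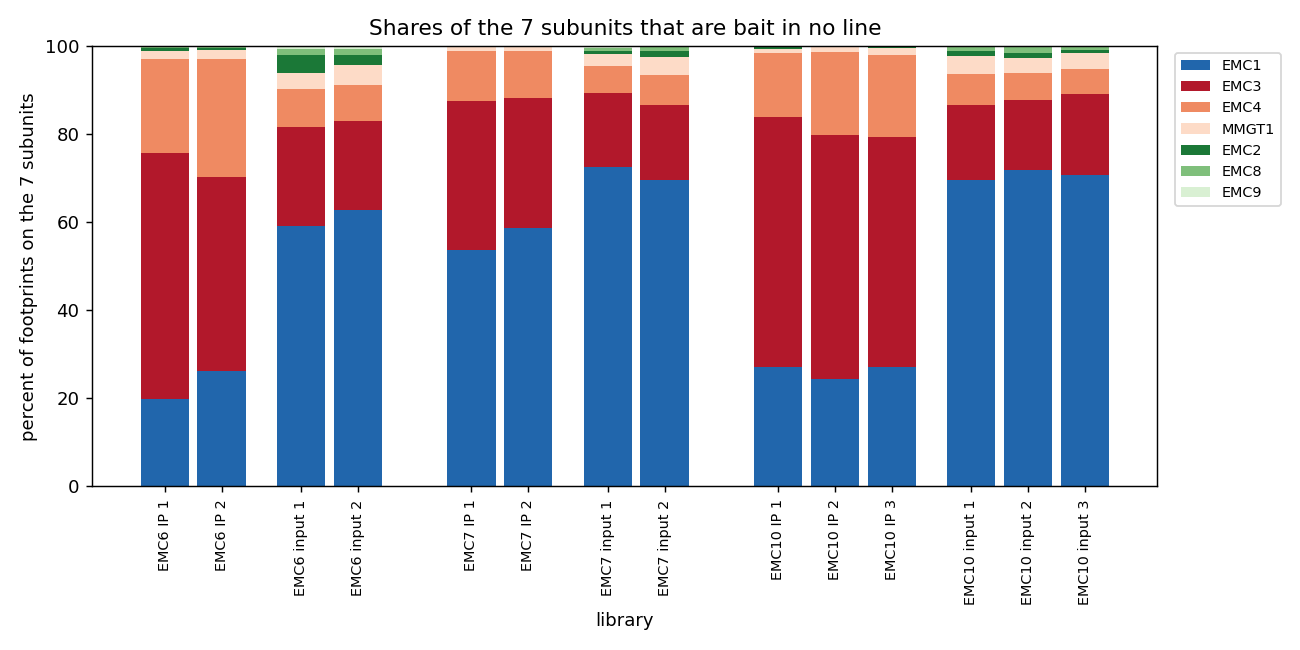
Footprints on the 7 subunit messages that were bait in no line, as percent of their sum (y axis), for each library (x axis). EMC1 takes 19.9% to 27.2% in EMC6 and EMC10 IPs and 53.6% to 58.8% in EMC7 IPs, against 59.2% to 72.6% in inputs.

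The level of some changes rested on the scaling between libraries. By library size alone, the bait row itself lowered every other gene in the IPs, since it held 14.4% and 15.0% of the counts in EMC7 IPs and 24.6% to 26.1% in EMC10 IPs, but 0.431% and 0.449% in EMC6 IPs. Leaving the 3 bait rows out of the library totals raised the change of each of the 7 other subunits by about 0.011 to 0.012 with EMC6, 0.22 with EMC7 and 0.41 to 0.42 with EMC10. A further 0.68 to 0.70, 0.79 to 0.80 and 0.69 to 0.71 separated these values from those with TMM in the EMC6, EMC7 and EMC10 lines, so the bait rows were the smaller part of the gap in every line.

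Some subunits turned sign with the scaling, from TMM changes as large as 1.09 (EMC6 in the EMC10 line), while EMC3, EMC4 and EMC7 did not. With library size alone EMC1 was called lower in the EMC10 line (-0.50, adjusted p = 0.000127), and with the bait rows out of the totals it stood at -0.08 (adjusted p = 0.524). MMGT1 in the EMC10 line was likewise called lower with library size alone (-0.63, adjusted p = 0.00232) and stood at -0.21 (adjusted p = 0.299) without the bait rows. Library size alone also ended the calls of MMGT1 (0.34) and EMC1 (0.05) in the EMC6 line and of EMC6 (0.14) in the EMC7 line, and there MMGT1 and EMC10 stood at -0.43 and -0.40. EMC6 in the EMC10 line was at -0.03 and then at 0.39 (adjusted p = 0.0476). EMC2 fell by both measures in all 3 lines, at -1.02, -1.39 and -1.17 without the bait rows (adjusted p = 0.0315, 0.00359 and 0.00460), and EMC8 fell in the EMC7 and EMC10 lines, at -0.94 and -0.90 (adjusted p = 0.0238 and 0.00770).

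**Figure D5:**
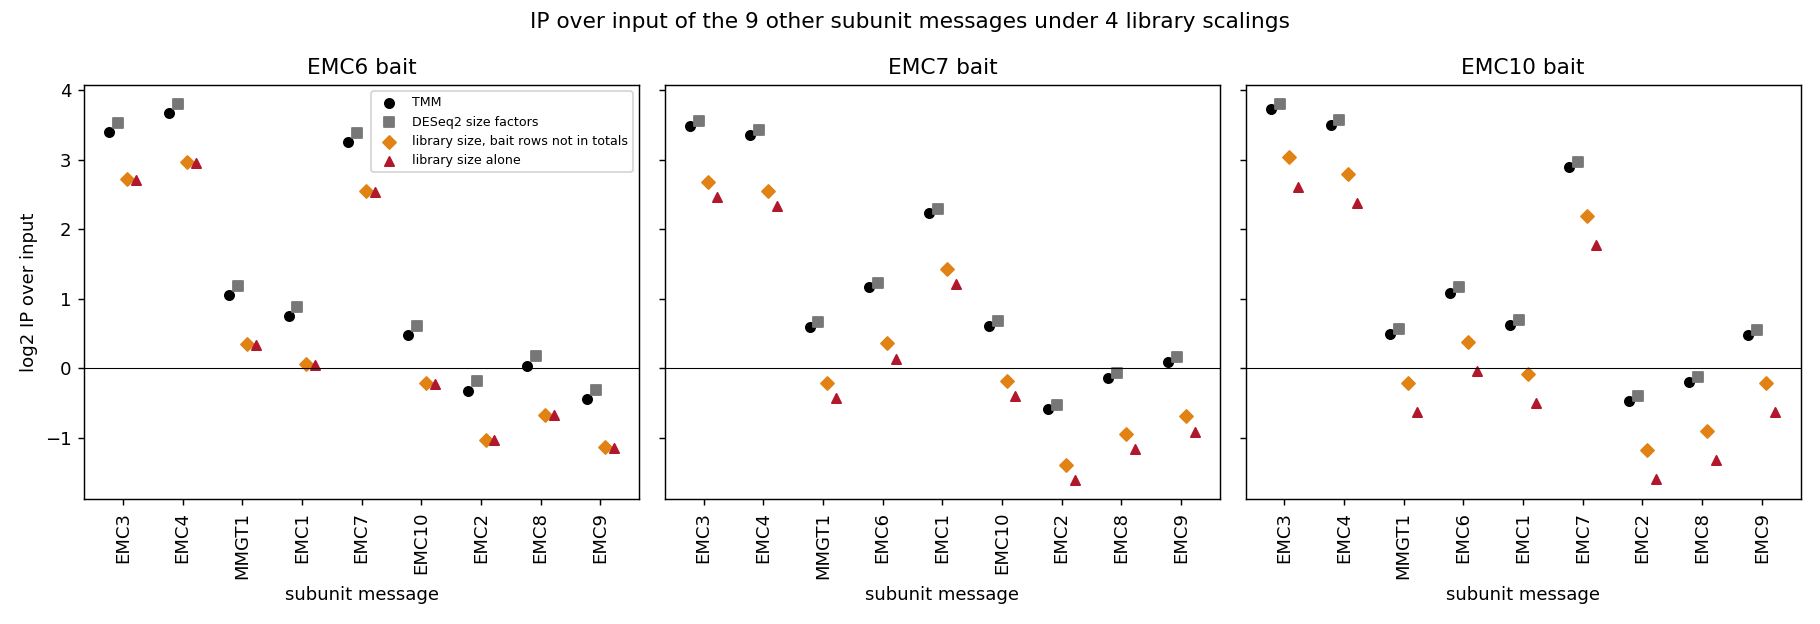
The log2 change of IP over input of the 9 subunit messages other than the bait (x axis) under 4 ways of scaling the libraries, 1 panel per line. EMC3, EMC4 and EMC7 stay at 1.78 or higher where they are no bait, while EMC1 in the EMC10 line lies at 0.62 with TMM, -0.08 with library size without bait rows and -0.50 with library size alone.

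The inputs give the footprints on each subunit message on microsomes of each line before capture, relative to the other genes and not as an amount made. In the EMC6 line several membrane subunits had fewer footprints than in the other lines: of 8 subunits that were bait in neither line, 5 were lower in EMC6 than in EMC7 inputs and none higher, and 5 were lower and 1 higher in EMC6 than in EMC10 inputs. The background was large, with 19.9% and 20.4% of all tested genes lower and 10.4% and 12.5% higher in these 2 comparisons (30.3% and 32.9% in either direction). With library size alone the split over all genes turned to 2935 higher and 1304 lower, and to 2811 and 1363, and 3 subunits were then called against EMC7 inputs, 1 higher and 2 lower. The largest difference was that of EMC10, at 92.9 and 60.2 CPM in EMC6 inputs against 264 and 327 CPM in EMC7 inputs, a difference of -1.95 ± 0.19 (adjusted p = 1.45e-09). EMC1 was lower by a similar amount against both lines, at -1.25 ± 0.16 against EMC7 and -1.17 ± 0.15 against EMC10 inputs (adjusted p = 2.43e-07 and 2.51e-07).

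EMC7 was lower in EMC6 than in EMC10 inputs, by -1.16 ± 0.23 (adjusted p = 0.000608). The differences of EMC3 were -0.71 ± 0.17 and -0.65 ± 0.16 against EMC7 and EMC10 inputs (adjusted p = 0.00147 and 0.00157), those of EMC4 -0.62 ± 0.18 and -0.53 ± 0.17 (0.00828 and 0.0122), and those of MMGT1 -0.74 ± 0.22 and -0.80 ± 0.20 (0.0102 and 0.00254). EMC2 was higher in EMC6 than in EMC10 inputs by 0.73 ± 0.26 (adjusted p = 0.0314), and at 0.49 ± 0.29 against EMC7 inputs it did not pass. The EMC6 row, which holds the tagged message in a knockout there, was at -0.20 ± 0.24 and -0.33 ± 0.22 against EMC7 and EMC10 inputs and passed in neither, though without EMC6 input 2 it was called against EMC10 inputs (-0.75, adjusted p = 0.0264).

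EMC6 input 1 carried part of these calls: without it the subunits called numbered 3 against EMC7 inputs and 3 against EMC10 inputs, and EMC4 (-0.56 and -0.48, adjusted p = 0.05005 and 0.0823), MMGT1 (-0.52 and -0.58, adjusted p = 0.117 and 0.0556) and EMC2 (0.37 against EMC10, adjusted p = 0.444) were lost. Without EMC7 input 2 the first count was also 3, with EMC4 at -0.57 (adjusted p = 0.0683) and MMGT1 at -0.45 (adjusted p = 0.243). EMC2 was also lost without EMC10 input 3 (0.55, adjusted p = 0.160), with DESeq2 size factors (0.65, adjusted p = 0.0580) and with the DESeq2 test (0.66, adjusted p = 0.161). With library size alone EMC3 (-0.38, adjusted p = 0.0507), EMC4 (-0.28, adjusted p = 0.165) and MMGT1 (-0.41, adjusted p = 0.128) were not called against EMC7 inputs, nor EMC4 against EMC10 inputs (-0.26, adjusted p = 0.166). The EMC6 inputs were also shallower and had more counts outside genes, as given above, and of 23 other ER insertion factors 15 were lower and 1 higher (UBL4A) than in EMC7 inputs, and 16 lower and 2 higher (UBL4A and SEC61G) than in EMC10 inputs, where 19.9% and 20.4% of all tested genes were lower. The part of these in the subunits' values was not tested.

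For EMC7 against EMC10 inputs, edgeR called 0 of the 8 subunits, with 0 at an unadjusted p under 0.05 and 0 by DESeq2. In that comparison 0.0211% of genes were called (0.0106% in each direction), and these were the EMC7 and EMC10 rows. EMC3, EMC4, MMGT1, EMC6 and EMC1 differed by 0.06 ± 0.15, 0.08 ± 0.16, -0.06 ± 0.19, -0.13 ± 0.21 and 0.08 ± 0.14. The EMC7 row was 16.6-fold higher in EMC7 than in EMC10 inputs (log2 4.05 ± 0.22, adjusted p = 1.20e-09), and the EMC10 row lower by -3.12 ± 0.18 on the log2 scale (adjusted p = 9.45e-15). EMC2, EMC8 and EMC9 differed by 0.23 ± 0.27, -0.21 ± 0.25 and 0.63 ± 0.40.

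Other factors that insert proteins at the ER were set beside the EMC from a list of 26 genes of the Sec61 translocon, the multipass translocon, the GET pathway and the TRAP complex. Of these 23 were tested, as BAG6 and NOMO1 and NOMO3, near-identical copies of NOMO2, had 0 to 3 counts per library. With the EMC6 bait 13 rose and none fell, with EMC7 10 rose and none fell, and with EMC10 11 rose and 1 fell, with list medians of 0.59, 0.39 and 0.48. Of all tested genes, 17.6%, 20.4% and 19.9% were higher and 9.27%, 9.68% and 13.9% lower with these baits. The counts rest on the scaling: with library size alone 6 factors rose and 4 fell with EMC6, 5 rose and 11 fell with EMC7, and 5 rose and 15 fell with EMC10. Falls were then common among the 9458 tested genes too. With these baits in turn, 990 genes were higher and 4320 lower, 1001 and 6038, and 760 and 7171. Differences between baits were called by edgeR for 0 of 23 factors in each comparison. At an unadjusted p under 0.05 there were 5 factors for EMC6 minus EMC7, 2 for EMC6 minus EMC10 and 2 for EMC7 minus EMC10. Of all 9458 tested genes, 847, 590 and 621 were under 0.05 in these comparisons. DESeq2 called 1 of 17, 0 of 13 and 0 of 13 factors to which it gave an adjusted p.

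The factors of this list that belong to the same insertase family as EMC3 are TMCO1 and GET1. TMCO1, of the multipass translocon, rose by 0.95 ± 0.18, 0.84 ± 0.17 and 0.88 ± 0.14 with EMC6, EMC7 and EMC10 (adjusted p = 0.000101, 0.000153 and 3.77e-06). GET1, the membrane receptor of the GET pathway, rose by 0.87 ± 0.28 with EMC6 (adjusted p = 0.0178) and stood at 0.57 ± 0.25 and 0.48 ± 0.21 with EMC7 and EMC10 (adjusted p = 0.0848 and 0.0779). The largest rises were those of TMEM147 with EMC6 (2.37 ± 0.21), NCLN with EMC7 (2.25 ± 0.16) and CCDC47 with EMC10 (2.35 ± 0.13), all of the multipass translocon. The lowest values were SEC61G with EMC6 (-0.52 ± 0.31, not called), GET4 with EMC7 (-0.16 ± 0.39, not called) and the cytosolic cochaperone SGTA with EMC10 (-0.67 ± 0.22, adjusted p = 0.0159).

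The genes whose IP over input ratios were most like a subunit's, by distance over the 7 pairs among genes with a mean of at least 10 CPM, were found for each subunit that was no bait. Closest to EMC3 were DPY19L1, the channel subunit TRPC1 and DHRS13 (distances 0.505, 0.557 and 0.604 in log2 units), and near EMC4 were TAPT1 and the anoctamin ANO5 (0.518 and 0.554). MMGT1 lay closest to the ER peroxidase GPX8, CYB5D2 and the synaptophysin relative SYPL1 (0.518, 0.550 and 0.551). EMC1 had its nearest neighbours farther away: KIAA1549, the heparan sulfate sulfotransferase HS6ST1 and FUT11 were at 0.710, 0.754 and 0.754. The distance between EMC3 and EMC4 themselves was 0.964, and the next shortest between subunits was 0.999, between EMC2 and EMC8. EMC2 lay closest to MAST4, CCDC124 and TXLNG (0.822, 0.869 and 0.895), EMC8 to COPG2 and NME4 (0.626 and 0.700), and EMC9 to ENC1, MZT2B and PCDHB2 (1.47, 1.65 and 1.71). At their counts of 1 to 17 per IP the spread of a pair is large.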

How the data were processed

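The authors deposited whole-number counts of ribosome footprints per gene symbol for 14 libraries, not normalized. The submitters' processing notes list cutadapt 4.1, Bowtie2 2.2.6, TopHat2 2.1.0 and the build hg38. For annotation, strand and duplicates, the setting is not given in the sources used here. Overlapping and antisense genes can therefore share counts, and duplicated fragments may remain. Positions are those of RefSeq, GRCh38.p14, which held 18968 of the 19440 symbols. The 5 rows that name no gene, whose share the report gives, entered neither library sizes nor tests.

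A single model in edgeR 4.0.16 covered the 14 libraries (with limma 3.58.1 under R 4.3.3). It had 1 mean for each line and fraction, filterByExpr, TMM and a robust quasi-likelihood test, adjusted over 9458 genes by Benjamini-Hochberg with a call at 0.05. SEs are the log2 change over the square root of F, and ratios per pair use a prior count of 0.5. Alternatives were DESeq2 1.42.0, other scalings, no filter, bait rows left out, a replicate block, the compared lines alone and each library left out. The labels name the replicate number a batch and the IP was taken from the input, so numbers pair IP and input; this rests on the labels, as the deviations of an IP and its input correlated at r = 0.21 in the EMC6 line but under 0.1 in the others (0.061 for EMC7, and 0.022, 0.083 and 0.058 for EMC10). No replicates matched within counting noise, with chi-square over degrees of freedom between 1.91 and 7.74. Separate cultures are not stated in the labels. The spread behind the p-values is that between samples and may be technical.

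The subunits, the list of insertion factors, the markers and the rule for named genes (the 10 subunits; TMCO1, GET1 and the highest and lowest list members per bait; the 3 nearest genes of each subunit that was no bait) were chosen with earlier results of these data known. Some items that this rule names are not reported here. The model was checked on simulated libraries with planted changes. Footprints per codon were planned and not run, as coding lengths were not used here, so levels are not compared between genes per length.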

Additional observations from a re-analysis of the deposited data

Results flagged for a closer look

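EMC1 was the subunit whose IP over input change differed between baits by the interaction term, outside the bait rows. The log2 difference was -1.48 for EMC6 minus EMC7 (-1.4753, adjusted p = 0.000447) and 1.61 for EMC7 minus EMC10 (1.6094, adjusted p = 1.63e-05), with the change larger in both EMC7 pairs than in all 5 pairs of the other lines. No group had the 4 samples that a check for single deviating samples needs.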

How the results depend on the processing

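The values and calls of EMC3, EMC4, EMC7 and the bait rows for IP over input kept direction and call under every alternative run, as did the EMC1 differences between baits. Of 651 values of single subunits under alternatives other than leaving out a library, 587 kept direction and call, 17 lost and 16 gained a call, and 31 turned sign; of 1260 with a library left out, the numbers were 1189, 20, 2 and 49. With library size alone 16 of 23 insertion factors were called with EMC7 and 20 of 23 with EMC10. In the EMC6 minus EMC7 inputs 3 of 8 subunits were called. Of the 9458 tested genes, 1001 were higher and 6038 lower, 760 and 7171, and 2935 and 1304 in these comparisons, so calls were common among all genes. The replicate block, which pairs IP and input, called 1 subunit for EMC6 minus EMC10 changes (EMC3, -0.35) and EMC10 with the EMC6 bait (0.52), and changed no other call of a subunit. With it, the genes called for the differences between baits were 267 higher and 330 lower, 178 and 33, and 348 and 66. Without it they were 18 and 31, 6 and 1, and 14 and 1. The part of pairing itself in this gain was not tested. Library size alone moved the median of all genes by -0.71, -1.02 and -1.11 with the EMC6, EMC7 and EMC10 baits, and with the bait rows out of the totals 995 genes were higher and 4256 lower, 1196 and 5144, and 1123 and 5647. Over all genes, the EMC6 line alone gave 1114 higher and 128 lower, against 1666 and 877. Differences between baits called over all genes also moved. EMC6 minus EMC7 gave 12 higher and 10 lower with DESeq2 size factors, 53 and 52 with the DESeq2 test, 195 and 21 with library size alone, 79 and 44 with the bait rows out of its totals, 37 and 66 with no filter, and 4 and 2 with these lines alone. EMC6 minus EMC10 gave 493 and 1 with library size alone and 9 and 2 with no filter. EMC7 minus EMC10 gave 5 and 1 with DESeq2 size factors, 45 and 1 with the DESeq2 test, 95 and 1 with library size alone, 8 and 0 with bait rows left out, 34 and 1 with no filter, and 115 and 17 with these lines alone. With a library left out, subunits called in the inputs ranged from 3 to 5 (EMC6 minus EMC7) and from 3 to 6 (EMC6 minus EMC10). With library size alone, signs turned as follows. With the EMC6 bait, EMC10 was -0.23 and EMC8 was -0.68. With the EMC7 bait, MMGT1 was -0.43, EMC10 was -0.40 and EMC9 was -0.91. With the EMC10 bait, MMGT1 was -0.63, EMC6 was -0.031, EMC1 was -0.50 and EMC9 was -0.62. For the changes EMC6 minus EMC7, EMC3 was 0.25 and EMC10 was 0.18. For the changes EMC6 minus EMC10, EMC3 was 0.092. For the inputs EMC6 minus EMC7, EMC6 was 0.14, EMC8 was 0.11 and EMC9 was 0.31. With library size alone and the bait rows out of the totals, signs turned as follows. With the EMC6 bait, EMC10 was -0.22 and EMC8 was -0.66. With the EMC7 bait, MMGT1 was -0.20, EMC10 was -0.18 and EMC9 was -0.69. With the EMC10 bait, MMGT1 was -0.21, EMC1 was -0.077 and EMC9 was -0.21. For the changes EMC6 minus EMC7, EMC3 was 0.034. For the changes EMC7 minus EMC10, EMC6 was -0.021 and EMC8 was -0.037. For the inputs EMC6 minus EMC7, EMC6 was 0.12, EMC8 was 0.10 and EMC9 was 0.30. With the compared lines fitted alone, signs turned as follows. For the changes EMC7 minus EMC10, EMC6 was -0.0045 and EMC8 was -0.017. Why these values depend on the scaling beyond the bait rows was not tested. Where leaving out 1 library turned a sign, the values ranged as follows. With the EMC6 bait, EMC2 from -0.50 to 0.019, EMC8 from -0.43 to 0.38 and EMC9 from -1.96 to 0.64. With the EMC7 bait, EMC8 from -0.50 to 0.061 and EMC9 from -0.42 to 0.58. With the EMC10 bait, EMC8 from -0.34 to 0.041. For the changes EMC6 minus EMC7, EMC3 from -0.24 to 0.11, EMC10 from -0.29 to 0.21, EMC2 from -0.072 to 0.61, EMC8 from -0.28 to 0.54 and EMC9 from -2.02 to 0.55. For the changes EMC6 minus EMC10, EMC1 from -0.048 to 0.42, EMC7 from -0.31 to 0.92, EMC2 from -0.23 to 0.69, EMC8 from -0.23 to 0.59 and EMC9 from -2.43 to 0.16. For the changes EMC7 minus EMC10, MMGT1 from -0.18 to 0.40, EMC6 from -0.29 to 0.31, EMC2 from -0.50 to 0.42, EMC8 from -0.29 to 0.26 and EMC9 from -0.90 to 0.11. For the inputs EMC6 minus EMC7, EMC6 from -0.62 to 0.071 and EMC9 from -0.32 to 0.41. For the inputs EMC7 minus EMC10, EMC3 from -0.0078 to 0.18, MMGT1 from -0.36 to 0.22, EMC2 from -0.11 to 0.56 and EMC8 from -0.33 to 0.033. None of the 49 values that turned sign with a library left out passed the test. Depth limits EMC2, EMC8 and EMC9 most. Footprints per codon were not run.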
